A study of Mus musculus with 10 samples.

Results

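Interferon-stimulated genes are the genes that a cell switches on when it receives an interferon signal. Here 49 of them were followed among the 35375 features of a read-count table from the mouse thymus. The members were taken by symbol from a list of the transcription factors, nucleic-acid sensors, antiviral enzymes and effectors of the response. Of these, 46 were listed for their place in the pathway, with earlier results of these data known. Sp100, Samhd1 and Ifi208 were added because of the values they show in these libraries. Those 3 are therefore described without a test and enter no count of called genes. All 49 symbols matched a row, and all 49 passed the filter on low counts, with at least 20 counts in every library.

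Type I interferons bind a receptor made of IFNAR1 and IFNAR2, which carries the kinases TYK2 and JAK1. The kinases phosphorylate STAT proteins, of which STAT2 works together with IRF9 in the complex ISGF3, and this complex binds the interferon-stimulated response element (ISRE) in target promoters. Type II interferon acts through IFNGR1 and IFNGR2 and leads to a palindromic element named GAS, and one of its targets is the transcription factor IRF1. In the thymus a low interferon signal is present without infection, and medullary epithelial cells, dendritic cells and maturing thymocytes are known to take part in it.

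Total RNA of whole thymus was sequenced from 10 animals of the C57BL/6J strain, 3 days after birth. The labels place the knock-out of Usp7, a deubiquitinating enzyme, in the blood-forming lineages, on both alleles in the homozygous KO animals (n = 3) and on 1 allele in the heterozygous KO animals (n = 3), and the remaining animals were wild type for Usp7 (n = 4). The series counts 2 wild types with cre, the recombinase used for tissue-specific deletion, and 2 without it, and does not say which library is which or what drives the cre. The titles name all 4 as wild type for Usp7, but the columns of replicates 3 and 4 in the count table carry the words wt and het, while those of replicates 1 and 2 carry wt and wt. What the second word stands for is not given, so the 4 were kept as 1 group and each pair was also used alone. Each title carries a different animal number, so the libraries were taken as separate animals.

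The total was 39.8 to 122 M counts per library, and all 3 homozygous KO libraries (92.3 to 122 M) were deeper than all 4 wild types (39.8 to 86.4 M). Levels are given as CPM, counts brought to a common library size with TMM scaling, and a count of 0 allows up to 3 counts, or 0.0245 to 0.0753 CPM. Usp7 had 303, 422 and 408 CPM in homozygous KO, 472, 516 and 516 CPM in heterozygous KO and 676, 670, 594 and 589 CPM in wild type. Among the wild types, the pair with the word het had the 2 lower values, both above every heterozygous KO library. The 3 genotypes did not overlap, with a log2 fold change against wild type of -0.74 (SE 0.11, adjusted p 5.2e-04) in homozygous KO and -0.34 (SE 0.11, adjusted p 0.608) in heterozygous KO by edgeR's quasi-likelihood test. An exact two-sided permutation test over libraries gave p = 0.0286 for each, the smallest value that 35 splits can give. Which exons were deleted is not stated, so the count over the whole gene checks the labels only in part. Xist and Ddx3y marked 2 homozygous KO, 3 heterozygous KO and 1 wild-type animal as male and the other 4 as female, so sex differed in part with genotype.

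Promoters of a few members are shown because the ISRE, the element through which ISGF3 is known to act, can be looked for in them. Each line holds the 160 bases that precede the RefSeq start on GRCm38.p6, read along the gene's own strand, with the ISRE core in capitals, which is TTTC, any 2 bases and TTTC, or on the other strand GAAA, any 2 bases and GAAA. The first 3 belong to members that fell in homozygous KO, the next to the 1 member that rose, and the last to a member that was not called.
Ifit1, chr19:34640729-34640888, plus strand: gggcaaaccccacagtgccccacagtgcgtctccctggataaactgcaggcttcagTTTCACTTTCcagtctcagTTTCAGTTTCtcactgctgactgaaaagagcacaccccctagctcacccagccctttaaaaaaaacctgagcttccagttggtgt
Isg15, chr4:156200819-156200978, minus strand: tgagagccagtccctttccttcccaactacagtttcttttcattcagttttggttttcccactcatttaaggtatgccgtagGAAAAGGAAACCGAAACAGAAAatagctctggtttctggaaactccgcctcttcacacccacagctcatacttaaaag
Oas3, chr5:120777660-120777819, minus strand: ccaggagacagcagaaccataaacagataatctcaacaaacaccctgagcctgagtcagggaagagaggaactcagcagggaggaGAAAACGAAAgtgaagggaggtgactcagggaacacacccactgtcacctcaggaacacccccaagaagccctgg
Bst2, chr8:71537473-71537632, minus strand: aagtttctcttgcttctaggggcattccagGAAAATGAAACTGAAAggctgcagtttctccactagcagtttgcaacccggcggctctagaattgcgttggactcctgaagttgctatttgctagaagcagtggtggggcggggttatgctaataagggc
Rsad2, chr12:26456453-26456612, minus strand: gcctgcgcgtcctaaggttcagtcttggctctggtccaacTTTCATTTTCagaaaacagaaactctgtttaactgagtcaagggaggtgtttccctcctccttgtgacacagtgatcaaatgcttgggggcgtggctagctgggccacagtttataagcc

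Ifit1 had 2 cores, of which the upper begins 104 bases before the start. The capitals of Isg15 hold 3 overlapping cores and those of Bst2 hold 2. Over the whole window of the RefSeq table, from 250 bases before to 50 after the start, 39 of the 49 members had an entry. The ISRE core stood in 19 of these 39 (48.7%), against 3.99% of the 27025 genes in the table and 3.79% of the 11974 with an entry that were tested. A GAS match, TTCNNNGAA, which reads the same on both strands, stood in 11 of the 39 (28.2%) against 9.55% of the table. Without Sp100, Samhd1 and Ifi208 the core stood in 18 of 36 and GAS in 10 of 36. The 2 motifs were searched separately and may overlap. Of these 36, the core stood in 10 of 18 that fell (55.6%) and in 8 of 18 that were not called or rose (44.4%), and GAS in 3 of 18 (16.7%) and 7 of 18 (38.9%), counts that were not tested. The median log2 fold change in homozygous KO was -0.41 with the core and -0.33 without it. A match of letters describes the window and is not evidence of binding.

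The homozygous KO thymus had less RNA of most interferon-stimulated genes than the wild type. Of the 46 members, 27 fell, 1 rose and 18 were not called at an adjusted p under 0.05 in edgeR. Over all 19511 genes tested in this comparison, 13.2% were called lower and 12.5% higher, 25.8% in all. The lower calls were thus 58.7% of the members against 13.2% of the background. The members were chosen with earlier results of these data known, so this contrast is a description and not a test. With the wild types of 2 wt words alone as controls 22 members fell and 1 rose, and with the pair whose columns carry het 20 fell and 1 rose. The calls over all genes, in either direction, were 3595 and 2670 with these pairs, against 5030 with all wild types. The median log2 fold change of the members was -0.42 and that of all genes -0.01, and 42 of the 46 values were negative. In 30 members every homozygous KO library was below every wild-type library, which held for 16.4% of all genes, and in 1 member every such library was above, which held for 16.3%. On library totals without TMM, the median of all genes moved to -0.11 and the share of higher calls among all calls from 48.6% to 29.0%. In that fit 4941 genes were called in all, 34 members fell and Bst2 still rose. In whole thymus, fewer cells of a type that uses these genes and less RNA per cell cannot be told apart.

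**Figure D1:**
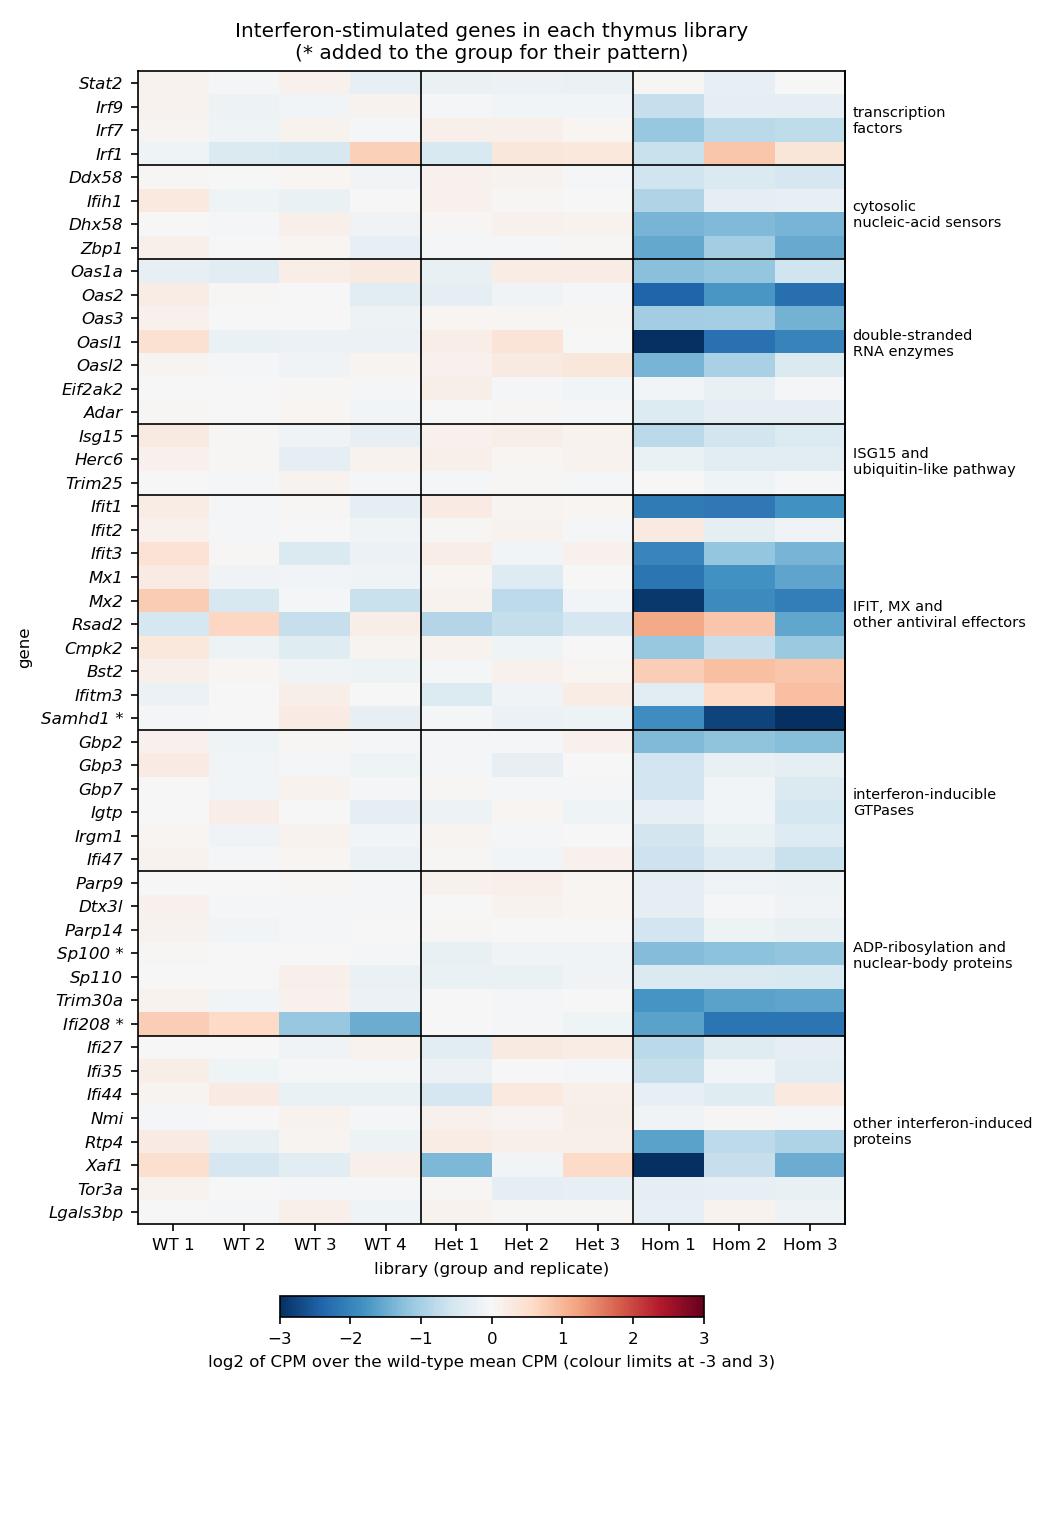
Each row is a member, grouped by role, and each column a library. Colour gives the log2 of the CPM over the wild-type mean, from blue (below) to red (above), with limits at -3 and 3. The 3 homozygous KO columns are mostly blue, with a median over the 46 members of -0.61, -0.33 and -0.41, while the heterozygous KO columns have a median of 0.03 each.

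Of the 4 transcription factors, Irf7 and Irf9 fell and Stat2 and Irf1 were not called. Irf7, which amplifies the type I response, had 10.9, 13.8 and 14.1 CPM in homozygous KO, 26.8, 26.9 and 24.9 CPM in heterozygous KO and 25.3, 21.9, 25.7 and 23.3 CPM in wild type. Every homozygous KO library was well under all 7 others, with a log2 fold change of -0.89 (SE 0.10, adjusted p 1.0e-04). Irf9, the DNA-binding part of ISGF3, had 27.5, 36.4 and 36.9 CPM in homozygous KO, 43.0, 42.0 and 42.2 CPM in heterozygous KO and 48.03, 39.9, 41.9 and 47.99 CPM in wild type. The homozygous KO libraries were below all 7 others, but the fall was small at -0.40 (SE 0.11, adjusted p 0.0169), its call was lost in 3 of 19 alternatives, and the gene overlaps Rnf31 on the same strand. Stat2, the partner of IRF9 in that complex, had 69.8, 57.4 and 69.2 CPM in homozygous KO, 59.5, 60.4 and 59.9 CPM in heterozygous KO and 73.3, 66.6, 75.1 and 58.0 CPM in wild type. The ranges overlapped, with a log2 fold change of -0.06 (SE 0.09, adjusted p 0.678).

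Irf1, a transcription factor that type II interferon also induces, had 67.0, 191 and 138 CPM in homozygous KO, 78.3, 136 and 134 CPM in heterozygous KO and 97.2, 79.2, 77.1 and 175 CPM in wild type. The 5 libraries below 100 CPM were those of animals 44 to 51, and the 5 above were those of animals 56 to 63, in every genotype. Its pooled log2 fold change was 0.30 (SE 0.36, adjusted p 0.584), while within the first set of animals the difference was -0.33 and within the second -0.11, each with 1 library in one arm. What the animal numbers mean is not given in the labels.

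The 4 sensors of foreign nucleic acid were lower in every homozygous KO library than in every wild type, and 3 of them were called. Ifih1, which encodes MDA5, a sensor of long double-stranded RNA, had 12.1, 18.7 and 19.0 CPM in homozygous KO, 24.6, 23.1 and 22.3 CPM in heterozygous KO and 27.6, 20.6, 19.8 and 22.2 CPM in wild type. The gap between 19.0 and 19.8 CPM was narrow, and the log2 fold change of -0.44 (SE 0.16) missed the threshold with an adjusted p of 0.0647. Ddx58, which encodes RIG-I, a sensor of RNA with a triphosphate end, fell by 0.51 on the log2 scale (SE 0.07, adjusted p 2.8e-04). Dhx58, which encodes LGP2, a related helicase without a signalling domain, fell to 38.8% of the wild-type mean, with 2.88, 3.04 and 2.89 CPM against 7.03 to 8.44 CPM. Zbp1, a sensor of nucleic acid in the Z form, fell to 39.4%, with 8.64, 11.97 and 8.79 CPM against 21.1 to 27.6 CPM. The latter pair had log2 fold changes of -1.37 (SE 0.11, adjusted p 1.1e-05) and -1.34 (SE 0.13, adjusted p 3.2e-05).

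Among the 7 proteins that bind double-stranded RNA, 6 fell. Oasl1, an oligoadenylate synthetase-like protein, showed the lowest fold of all tested members. It had 0.174, 0.528 and 0.621 CPM in homozygous KO, 2.89, 3.30 and 2.48 CPM in heterozygous KO and 3.44, 2.17, 2.21 and 2.21 CPM in wild type. The homozygous KO libraries lay far under the other 7, at 17.6% of the wild-type mean, and the log2 fold change was -2.51 (SE 0.38, adjusted p 7.1e-04). Oas2, a synthetase of the 2'-5' oligoadenylates that activate RNase L, had 1.31, 2.05 and 1.43 CPM in homozygous KO, 5.67, 6.47 and 6.68 CPM in heterozygous KO and 8.05, 7.03, 7.02 and 5.54 CPM in wild type. No homozygous KO library came near the other groups, with a log2 fold change of -2.11 (SE 0.19, adjusted p 2.4e-05).

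Oas3 and Oas1a, of the same synthetase family, fell by 1.14 (SE 0.11, adjusted p 4.4e-05) and 0.98 (SE 0.24, adjusted p 0.0127) on the log2 scale, and Oasl2 fell by 0.88 (SE 0.19, adjusted p 0.00546). Reads of Oas1a are uncertain, since the locus holds several near-identical copies. Adar, which edits adenosine to inosine in double-stranded RNA, fell less, by 0.31 (SE 0.05, adjusted p 0.00160). Eif2ak2, which encodes the kinase PKR, was the exception of this group. It had 36.9, 33.6 and 38.4 CPM in homozygous KO, 44.5, 37.3 and 36.8 CPM in heterozygous KO and 39.7, 39.4, 39.8 and 37.6 CPM in wild type, so the groups overlapped and the log2 fold change was -0.11 (SE 0.08, adjusted p 0.350).

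Isg15, a ubiquitin-like protein that is joined to other proteins during the response, had 3.40, 4.06 and 4.48 CPM in homozygous KO, 6.51, 6.73 and 6.43 CPM in heterozygous KO and 7.17, 6.16, 5.57 and 5.08 CPM in wild type. The homozygous KO libraries were lower throughout, with a log2 fold change of -0.59 (SE 0.15, adjusted p 0.0136). The ligases of this pathway were not called: Herc6, the mouse ligase for ISG15, had -0.28 (SE 0.10, adjusted p 0.0584) and Trim25, a ligase that acts on RIG-I, had -0.06 (SE 0.05, adjusted p 0.462). Trim25 had the highest level per length of the members in wild type, 27.0 CPM per kb of exon, a value that Irf1 shared.

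The antiviral effectors moved in different directions. Ifit1, which binds RNA without a host cap, had 2.55, 2.50 and 3.14 CPM in homozygous KO, 13.2, 11.8 and 11.6 CPM in heterozygous KO and 13.0, 10.7, 11.4 and 9.14 CPM in wild type. All 3 homozygous KO libraries were at about the same low level, 24.7% of the wild-type mean, and the log2 fold change was -2.02 (SE 0.14, adjusted p 4.9e-06). Ifit3, its partner protein, had 1.84, 3.25 and 2.75 CPM in homozygous KO, 8.41, 6.90 and 7.93 CPM in heterozygous KO and 9.87, 7.39, 5.38 and 6.43 CPM in wild type. The wild types were spread more widely, yet none reached down to the homozygous KO libraries, and the log2 fold change was -1.47 (SE 0.24, adjusted p 0.00107). Ifit2, which lies in the same cluster on chromosome 19, did not share this: it had 63.9, 44.3 and 49.04 CPM in homozygous KO against 49.7 to 58.4 CPM in wild type, and its log2 fold change was -0.02 (SE 0.11, adjusted p 0.928).

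Mx1 and Mx2 encode dynamin-like GTPases that block virus replication. Mx1 had 0.694, 0.900 and 1.06 CPM in homozygous KO, 3.34, 2.44 and 3.21 CPM in heterozygous KO and 3.78, 2.98, 3.02 and 2.95 CPM in wild type. Mx2 had 0.660, 1.30 and 1.15 CPM in homozygous KO, 5.26, 2.82 and 4.63 CPM in heterozygous KO and 8.20, 3.51, 4.71 and 3.08 CPM in wild type. Both were lower in every homozygous KO library than in all 7 others, with log2 fold changes of -1.84 (SE 0.21, adjusted p 1.1e-04) for Mx1 and -2.23 (SE 0.39, adjusted p 0.00178) for Mx2. In C57BL/6J both Mx genes are known to lack a full-length product, so these values are RNA levels only. Cmpk2, a mitochondrial nucleotide kinase, fell by 0.96 on the log2 scale (SE 0.19, adjusted p 0.00333).

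Bst2, which encodes tetherin, a membrane protein that holds budding virus at the cell surface, was the only one of the 46 members called higher. It had 26.4, 29.4 and 28.2 CPM in homozygous KO, 15.5, 17.4 and 16.5 CPM in heterozygous KO and 17.7, 16.6, 14.7 and 14.3 CPM in wild type. Each homozygous KO library was above all 7 others, at 177% of the wild-type mean, with a log2 fold change of 0.83 (SE 0.09, adjusted p 7.3e-05). Ifitm3, which restricts virus entry, had 4.07, 7.77 and 9.57 CPM against 4.57 to 5.83 CPM in wild type, with a log2 fold change of 0.47 (SE 0.25, adjusted p 0.203). Rsad2, which encodes viperin and lies beside Cmpk2 on chromosome 12, had 20.2 and 16.4 CPM in 2 homozygous KO libraries and 3.15 CPM in the third, against 5.69 to 14.2 CPM in wild type. The homozygous KO libraries of Rsad2 lay on both sides of the wild types, and its log2 fold change of 0.52 (SE 0.49, adjusted p 0.474) rested on the first 2.

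**Figure D2:**
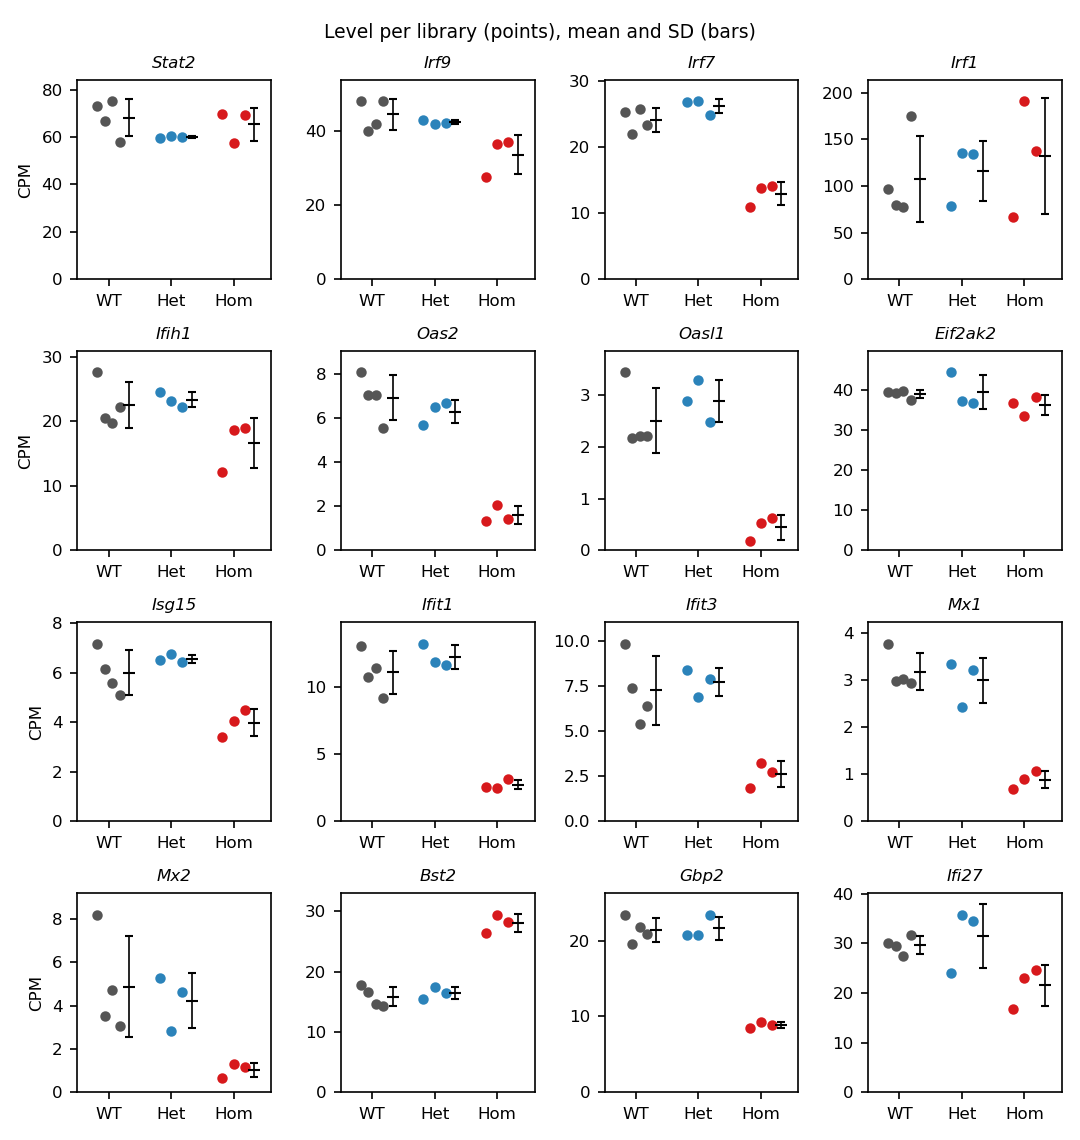
Each panel shows 1 gene, with CPM on a vertical axis that starts at 0, 1 point per library and the mean with its SD (n = 4 wild type, 3 heterozygous KO and 3 homozygous KO). Oas2, Oasl1, Ifit1, Ifit3, Mx1, Mx2, Irf7 and Gbp2 have all 3 red points under the others, Bst2 has them above, and Irf1, Stat2 and Eif2ak2 overlap.

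Of the 6 interferon-inducible GTPases, 4 fell. Gbp2, a guanylate-binding protein that coats pathogen vacuoles, had 8.47, 9.23 and 8.86 CPM in homozygous KO, 20.7, 20.7 and 23.4 CPM in heterozygous KO and 23.3, 19.5, 21.8 and 20.9 CPM in wild type. Its 3 groups had little spread, and the homozygous KO level was 41.4% of that in wild type, with -1.27 for the log2 fold change (SE 0.09, adjusted p 3.4e-06). The other called members of this group fell less, Ifi47 by 0.56 (SE 0.09, adjusted p 0.00120), Irgm1 by 0.37 (SE 0.09, adjusted p 0.0106) and Gbp7 by 0.34 (SE 0.10, adjusted p 0.0334) on the log2 scale. The call of Gbp7 was lost in 8 of 19 alternatives. Gbp3 (-0.35, adjusted p 0.0901) and Igtp (-0.27, adjusted p 0.136), which overlaps its relative Irgm2 on the same strand, were not called.

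The ligase-like Trim30a was listed with the ADP-ribosylation and nuclear-body proteins. In this group Trim30a, Sp110, Parp14 and Parp9 fell, and Dtx3l was not called. Trim30a, a ligase-like protein induced by interferon, had 14.4, 16.1 and 16.3 CPM in homozygous KO, 48.6, 46.8 and 48.4 CPM in heterozygous KO and 43.2 to 53.4 CPM in wild type. This was among the most even falls of the list, with a log2 fold change of -1.65 (SE 0.09, adjusted p 8.3e-07), though close relatives of Trim30a lie beside it and can share reads. Sp110, a nuclear-body protein, fell by 0.44 on the log2 scale (SE 0.07, adjusted p 0.00118) and the ADP-ribosyltransferase Parp14 by 0.30 (SE 0.09, adjusted p 0.0286), a call lost in 6 of 19 alternatives. Parp9 and Dtx3l, whose proteins act as a pair, lie head to head with overlapping ends on opposite strands. Parp9 fell by 0.17 (SE 0.06, adjusted p 0.0468), a call lost in 16 of 19 alternatives, and Dtx3l had a log2 fold change of -0.15 (SE 0.07, adjusted p 0.145).

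Sp100, Samhd1 and Ifi208 were placed in the group for their levels, so the following is a description. Samhd1, which hydrolyses deoxynucleotide triphosphates and limits reverse transcription, had 16.9, 8.95 and 6.49 CPM in homozygous KO, 58.8, 54.2 and 55.6 CPM in heterozygous KO and 59.6, 61.98, 73.3 and 51.7 CPM in wild type. Sp100, a component of nuclear bodies, had 70.1, 72.6 and 75.2 CPM in homozygous KO, 147, 159 and 160 CPM in heterozygous KO and 176, 171, 172 and 167 CPM in wild type. The homozygous KO level was 17.5% of the wild-type mean for Samhd1 and 42.4% for Sp100. Ifi208, of the PYHIN family of nucleic-acid-binding proteins, had 4.96, 3.27 and 3.30 CPM in homozygous KO, 15.1, 14.5 and 13.7 CPM in heterozygous KO and 25.2, 22.6, 6.85 and 5.31 CPM in wild type. Its wild types split into a high and a low pair, with the heterozygous KO libraries between them, so that the homozygous KO libraries were close to the low pair. The high pair are the wild types whose columns carry wt and wt, and the low pair those whose columns carry wt and het.

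The other induced proteins were the group with the lowest share of calls, 2 of 8 called lower (25.0%), against 13.2% called lower over all genes. Ifi27, a mitochondrial protein, had 16.9, 23.1 and 24.7 CPM in homozygous KO, 24.0, 35.8 and 34.6 CPM in heterozygous KO and 30.1, 29.5, 27.4 and 31.7 CPM in wild type. The homozygous KO libraries were below every wild type but overlapped the heterozygous KO, and the log2 fold change of -0.46 (SE 0.15, adjusted p 0.0465) was close to the threshold and lost its call in 10 of 19 alternatives. Rtp4, a chaperone of membrane receptors, fell by 1.06 on the log2 scale (SE 0.19, adjusted p 0.00180). Xaf1, which counteracts an inhibitor of apoptosis, had a larger value of -1.45 with a wide error (SE 0.53, adjusted p 0.0688), from 2.86, 15.4 and 8.83 CPM against 17.4 to 34.3 CPM in wild type. Ifi35 (-0.35, adjusted p 0.0924), Tor3a (-0.25, adjusted p 0.0818), Lgals3bp (-0.09, adjusted p 0.480), Ifi44 (-0.07, adjusted p 0.870) and Nmi (-0.04, adjusted p 0.716) were not called.

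In the heterozygous KO thymus none of the 46 members was called. Usp7 itself was not called here either (-0.34, SE 0.11, adjusted p 0.608), so the test can miss a change of that size. Over all genes of this comparison 3 were called, 0.0154%, all higher. At an unadjusted p under 0.05 edgeR had 1 of the 46 members, Sp110, with a log2 fold change of -0.17 (SE 0.07, adjusted p 0.666), where 7.28% of all genes were under it. DESeq2 called 0 of the 46 members and 58 genes in all (0.325%), of which 37 were lower and 21 higher. The 46 log2 fold changes ran from -0.68 for Rsad2 (SE 0.51) to 0.25 for Oasl2 (SE 0.18), with a median of 0.02 against -0.01 over all genes. None of the 46 was below every wild type in all 3 heterozygous KO libraries, against 4.27% of all genes. Oasl2 and Parp9 were above every wild type, against 4.41%. Sp100, which enters no count, had 147, 159 and 160 CPM in heterozygous KO, below the 167 to 176 CPM of wild type. For the members that fell furthest in homozygous KO, the heterozygous KO values were 0.21 (SE 0.34) for Oasl1, -0.20 (SE 0.36) for Mx2, -0.14 (SE 0.18) for Oas2, 0.15 (SE 0.13) for Ifit1 and -0.08 (SE 0.19) for Mx1. For Bst2 it was 0.06 (SE 0.09).

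The knock-outs were also compared directly, loss of both alleles against loss of 1. Against heterozygous KO, 26 members were lower in homozygous KO, 1 was higher and 19 were not called, where 9.50% of all genes were called lower and 7.63% higher (17.1% in all). The median log2 fold change of the members was -0.38 and that of all genes 0.00. Every homozygous KO library was below every heterozygous KO library in 30 members, against 16.8% of all genes, and above in Bst2, against 16.5%. The largest called falls were those of Oasl1 (-2.72, SE 0.39, adjusted p 7.4e-04), Ifit1 (-2.16, SE 0.15, adjusted p 6.3e-06) and Mx2 (-2.03, SE 0.40, adjusted p 0.00511), and Bst2 rose by 0.76 (SE 0.10, adjusted p 2.9e-04). Herc6 passed the threshold here (-0.39, SE 0.10, adjusted p 0.0243), while Irf9 (-0.34, adjusted p 0.0642) and Gbp7 (-0.31, adjusted p 0.0765) did not. This comparison shares its homozygous KO libraries with the one against wild type, so the counts are not independent of each other.

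**Figure D3:**
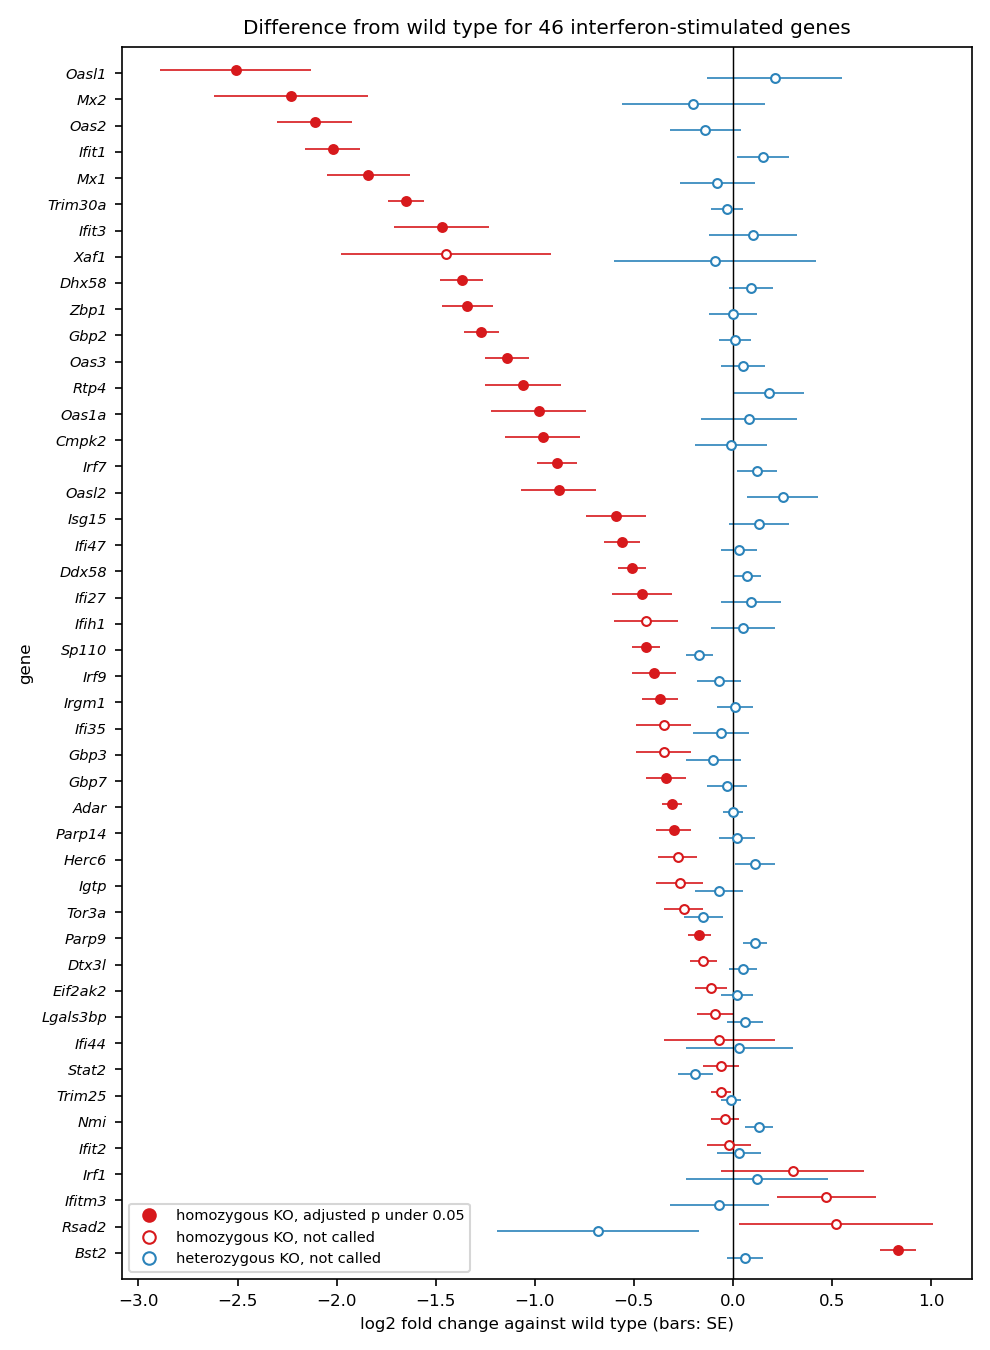
Log2 fold change against wild type (horizontal axis, bars give the SE) for the 46 members in homozygous KO (red) and heterozygous KO (blue), ordered by the homozygous KO value. Filled points passed an adjusted p under 0.05. The red points run from -2.51 for Oasl1 to 0.83 for Bst2, and the blue points lie around 0, all open.

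The animal numbers crossed the genotypes, so the comparison was also made within each set. Among animals 44 to 51 (1 homozygous KO and 3 wild types) 43 of the 46 members were lower in homozygous KO, with a median log2 difference of -0.64. Among animals 56 to 63 (2 homozygous KO and 1 wild type) 40 were lower, with a median of -0.31. In each set 1 arm was 1 library, and the same values over all genes were not computed. Ifit1 differed by -2.19 and -1.70, Oas2 by -2.48 and -1.69, Oasl1 by -3.83 and -1.94, and Bst2 by 0.70 and 1.01 within the sets. Rsad2 changed sign, with 1.33 in the first set and -0.57 in the second. For heterozygous KO the medians were 0.01 and 0.12. With the animal set as a term of the fit 29 members fell and 1 rose, and with sex as a term 23 fell and 1 rose. The calls over all genes in homozygous KO against wild type were 5303 and 3957 with these terms, against 5030 without them.

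Interferon-stimulated genes outside the group, also chosen with earlier results of these data known, were read in the same fit. Of 61 tested genes of this kind, 38 fell (62.3%) and 0 rose in homozygous KO by edgeR, against 13.2% and 12.5% of all genes. At an unadjusted p under 0.05 in edgeR 0 were higher too, and the median log2 fold change was -0.59. Aim2, a sensor of cytosolic DNA, had 1.17, 0.440 and 0.599 CPM in homozygous KO against 8.77 to 11.3 CPM in wild type (log2 fold change -3.79, SE 0.29, adjusted p 7.5e-06). Ifi213, of the same PYHIN family, had 0.946, 0.323 and 0.211 CPM against 5.10 to 8.23 CPM (-3.65, SE 0.44, adjusted p 1.5e-04). Ifi203 to Ifi207, Ifi209 and Mndal, relatives in this family, were also among the 38. Whether such relatives share reads was not tested. Apol9b was under 1 CPM in every library and fell as well (-3.50, SE 0.83, adjusted p 0.00990). In heterozygous KO 0 of the 61 were called, with 4 at an unadjusted p under 0.05, a share near the 7.28% of all genes.

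The interferons themselves were below 1 CPM in all genotypes where they could be read. Of 20 ligand genes listed, 9 matched no row and were not analysed here. Of the 11 that matched, 4 (Ifnb1, Ifna2, Ifna16 and Ifne) had no count in any library, 5 had at most 9 counts in a library, and 2, Ifng and Ifnk, could be tested. Ifng, the type II interferon, had 0.182, 0.352 and 0.233 CPM in homozygous KO and 0.281 to 0.919 CPM in wild type, and its log2 fold change was -1.15 (SE 0.49, adjusted p 0.113). Ifnk, a type I interferon of the skin, had 0.469, 0.763 and 0.820 CPM in homozygous KO and 0.225 to 0.963 CPM in wild type, with a log2 fold change of 0.27 (SE 0.43, adjusted p 0.675). For the 9 matched ligands under the filter a difference was not detectable at this depth.

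Receptors and signalling genes moved both ways, with 5 of 18 lower and 5 higher (27.8% each, against 13.2% and 12.5% of all genes). Ifngr1, the ligand-binding chain of the type II receptor, had 793, 808 and 867 CPM in homozygous KO, 492, 515 and 485 CPM in heterozygous KO and 458, 340, 327 and 359 CPM in wild type. Its 3 groups did not overlap, and in homozygous KO it rose by 1.15 log2 units (SE 0.10, adjusted p 1.8e-05), while the heterozygous KO value of 0.42 (SE 0.10) was not called (adjusted p 0.522). Socs3, an inhibitor of JAK signalling, rose by 0.88 (SE 0.23, adjusted p 0.0152), as did the phosphatase Ptpn11 by 0.28 (SE 0.05, adjusted p 0.00184), Ifnar2 and the SUMO ligase Pias1. Ifnlr1, the type III receptor chain, fell by 1.53 (SE 0.38, adjusted p 0.0126), the kinase Tyk2 by 0.49 (SE 0.07, adjusted p 5.8e-04) and Ifngr2 by 0.35 (SE 0.07, adjusted p 0.00579). Jak1 and Ifnar1 fell by 0.31 and 0.24. On library totals without TMM the higher calls over all pathway lists dropped from 7 to 4 and the lower calls went from 59 to 64 of 113.

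Among 22 genes of nucleic-acid sensing and interferon induction, 10 fell (45.5%) and 2 rose (9.09%). Of all genes, 13.2% were called lower and 12.5% higher, so the share of rises was not above that of all genes. Tlr9, the endosomal receptor of CpG DNA, had 0.486, 0.518 and 0.299 CPM in homozygous KO against 3.88 to 4.85 CPM in wild type (log2 fold change -3.34, SE 0.21, adjusted p 2.6e-06). Unc93b1, which carries endosomal Toll-like receptors to their compartment, fell by 2.07 (SE 0.17, adjusted p 1.4e-05), and Tlr3, the receptor of double-stranded RNA, by 1.94 (SE 0.38, adjusted p 0.00372). The others that fell were Tlr7, Irf8, Irf5, Tmem173, Ikbke, Irak4 and Irak1. Trim27 rose by 0.32 (SE 0.06, adjusted p 0.00284) and Rnaseh2c by 0.18 (SE 0.06, adjusted p 0.0424). Of 11 genes of class I antigen presentation, which interferons also induce, 6 fell (54.5%) and 0 rose in edgeR (0 higher also at an unadjusted p under 0.05). The falls were led by Nlrc5 (-1.82, SE 0.18, adjusted p 4.7e-05), the transactivator of this set, H2-K1 (-1.42, SE 0.10, adjusted p 3.4e-06) and H2-D1 (-0.88, SE 0.11, adjusted p 2.6e-04). The other called genes were Tapbp, Psmb10 and Psme2.

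**Figure D4:**
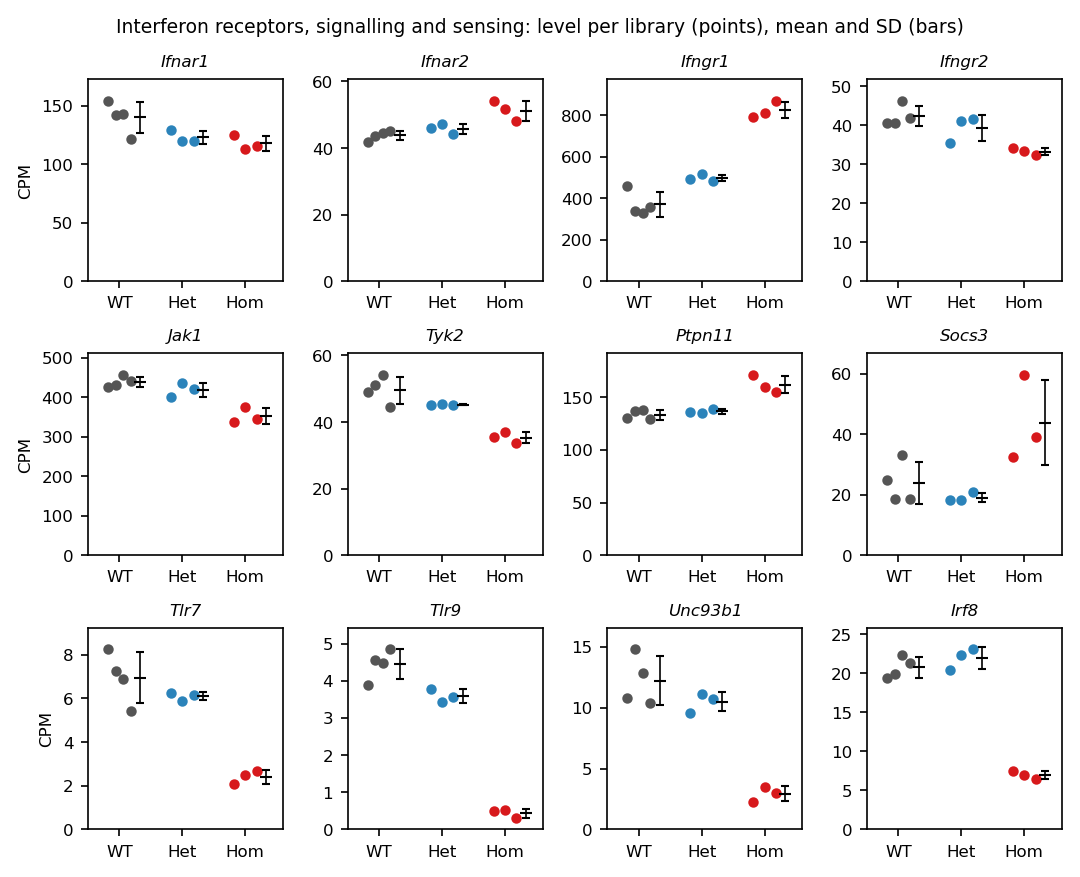
CPM per library (points, from an axis at 0) with the mean and SD for receptor, signalling and sensing genes in wild type (grey, n = 4), heterozygous KO (blue, n = 3) and homozygous KO (red, n = 3). Ifngr1 rises to 793 CPM and above in homozygous KO, whereas Tlr7, Tlr9, Unc93b1 and Irf8 drop under the other groups.

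Markers of several other cell types differed in homozygous KO, where 13.2% of all genes were called lower and 12.5% higher. The falls among endothelial and fibroblast (16.7% each) and thymic epithelial (11.1%) markers, and the endothelial rises (16.7%), were near these shares. All 10 markers of conventional dendritic cells fell, and their summed level was 7.17 to 20.1 CPM in homozygous KO, 70.8 to 89.3 CPM in heterozygous KO and 67.5 to 106 CPM in wild type. Ccr7, which mature thymocytes also express and which stands in their list too, made up much of this sum, and without it the other 9 summed to 5.82 to 7.19, 37.5 to 46.2 and 33.8 to 48.99 CPM. Of the 10 macrophage markers 9 fell, with sums of 32.2 to 39.5, 65.4 to 102 and 77.7 to 103 CPM. Of the 9 plasmacytoid dendritic cell markers 4 fell. Their sums, 569 to 681, 709 to 789 and 786 to 838 CPM, are mostly Ccr9, which thymocytes also express. The defining marker Siglech had 0.0174, 0 and 0.0111 CPM in homozygous KO, at or under 3 counts a library, against 1.70 to 2.85 CPM in wild type. Cd300c was at 0 in the homozygous KO libraries, but wild type had only 0 to 0.120 CPM. The 5 markers of this list that were not called were Tcf4, Klk1, Cox6a2, Ccr9 and Spib.

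Of the 8 B-cell markers 7 fell, with sums of 295 to 335, 351 to 373 and 332 to 398 CPM that are mostly Ighm. Igkc was at 0 in 2 homozygous KO libraries and at 0.0260 CPM in the other. Mature single-positive thymocyte markers fell for 6 of 8, with sums of 283 to 352, 500 to 526 and 478 to 647 CPM, and of the 10 double-positive markers 3 fell and 2 rose, with sums of 8033 to 8362, 9489 to 10205 and 9733 to 11083 CPM. That lower sum was Rag1, and without it the other 9 summed higher in homozygous KO, with 4704 to 4835, 3909 to 4195 and 4078 to 4571 CPM. Neutrophil markers rose for 7 of 9, with sums of 56.5 to 315, 6.52 to 12.3 and 8.10 to 24.5 CPM. Of natural killer and innate lymphoid markers 3 of 8 fell (70.5 to 118, 112 to 122 and 107 to 114 CPM), and of thymic epithelial markers 1 of 9, Aire, fell and 2, Krt5 and Krt14, rose (88.8 to 198, 75.4 to 168 and 74.0 to 123 CPM). Endothelial markers gave 1 fall and 1 rise of 6 (153 to 162, 139 to 149 and 146 to 160 CPM), and fibroblast markers 1 fall and 3 rises of 6 (18.8 to 53.0, 25.3 to 29.0 and 26.3 to 37.0 CPM). In heterozygous KO 0 of the 92 markers tested were called in edgeR or DESeq2, with 3 at an unadjusted p under 0.05 in edgeR. The part of these cell types in the levels of the interferon-stimulated genes was not tested.

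**Figure D5:**
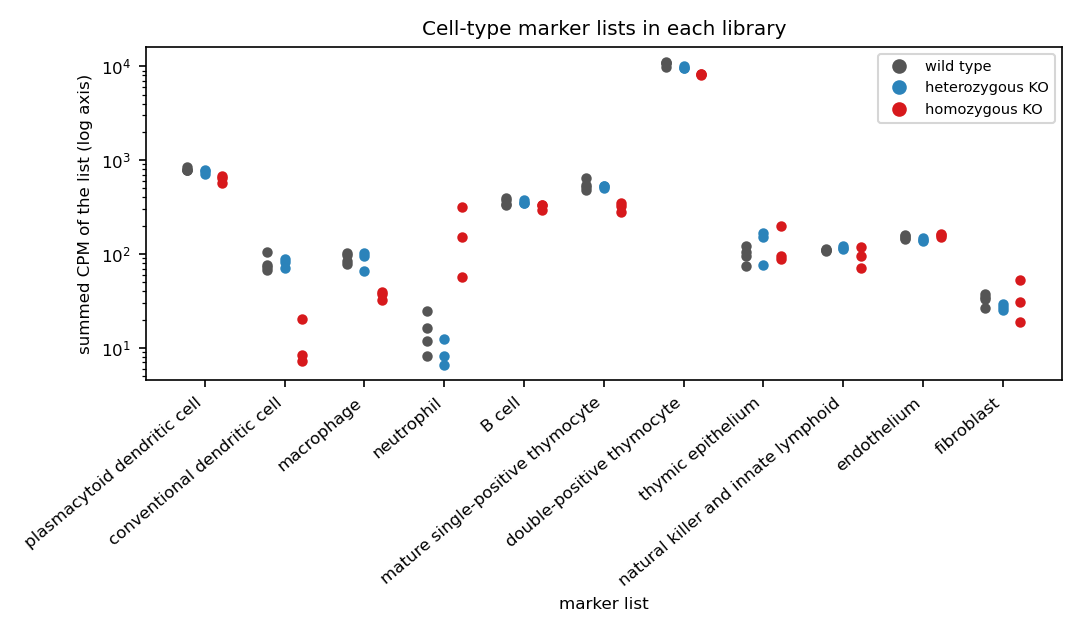
Summed CPM of each marker list (vertical log axis) in every library of wild type (grey), heterozygous KO (blue) and homozygous KO (red). The homozygous KO libraries are under the others for conventional dendritic cells (7.17 to 20.1 CPM), macrophages and mature thymocytes and above them for neutrophils (56.5 to 315 CPM).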

How the data were processed

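The authors deposited raw read counts per gene, 1 column per animal, with no normalization. The submitters' processing notes name CASAVA, STAR 2.4.1d, HTSeq 0.6.1p1 and the build NCBIM37 (mm9). The annotation release and the strand setting of the counting are not given in the sources used here. Symbols and exon lengths came from GENCODE for GRCm38, and 28 of the 49 members overlap no other gene there. Reads of the 8 members overlapped on the same strand and the 17 overlapped on the other strand may be shared.

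Counts were tested with edgeR 4.0.16 (R 4.3.3): TMM, filterByExpr, and glmQLFit and glmQLFTest in 1 fit over 10 libraries, with Benjamini-Hochberg adjustment over 19511 genes and calls at 0.05. The SE was the absolute log2 fold change over the square root of F. The procedure was tested on simulated data. All library columns were mapped to samples by animal and library number, and 2 of those mapped to wild type carry the words wt and het, where their titles have wt alone. The 12 within-group pairs differed by more than sampling noise. The interferon-stimulated genes and all lists were chosen with earlier results of these data known. Alternatives were other scalings, DESeq2 1.42.0, no filter, terms for replicate, animal set and sex, subsets of the wild types, and leaving out each library. Every member was named, with values in every library for a fixed set, for the 5 largest called falls and rises, and for the 3 genes added for their pattern. Ifit2, Rsad2, Ifitm3, Xaf1, Dhx58, Zbp1 and Trim30a were given library values, and the called pathway genes past the first 3 in each direction were named, after these had been seen. Some items of the pathway are not reported here.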

Additional observations from a re-analysis of the deposited data

Results flagged for a closer look

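In 4 of the 50 genes examined (the members and Usp7), wild type replicate 1 stood apart above the other 3 wild types by Dixon's criterion for the gap to the nearest library, which chance meets in about 1 of 20 groups. Oasl1 had 3.44 CPM there against 2.21 CPM in the next library, Mx1 3.78 CPM against 3.02 CPM, Gbp3 7.96 CPM against 6.44 CPM and Dtx3l 153 CPM against 135 CPM. The library is the shallowest, at 39.8 M counts, and the only male wild type, and its median over the 46 members was 0.11 on the log2 scale above the wild-type mean. Without it, Oasl1 and Mx1 were still called lower in homozygous KO.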

How the results depend on the processing

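The number of members called in homozygous KO against wild type lay between 21 and 35 over 19 alternatives, against 28. Over all genes the calls lay between 2670 and 5805, against 5030. Without homozygous KO replicate 1 or 3, 2 members were called higher, with 24 and 25 lower. Of the 28 calls, 20 were kept in every alternative. The other 8 are given with their highest adjusted p over all alternatives. With 1 pair of wild types alone as controls, Isg15 (0.128), Irgm1 (0.0504), Irf9 (0.0692), Oas1a (0.113), Gbp7 (0.125), Parp14 (0.128), Ifi27 (0.180) and Parp9 (0.182) lost their calls. Irf9, Gbp7, Parp9 and Parp14 also lost theirs with the replicate block, and Gbp7, Parp9, Parp14 and Ifi27 with sex as a term. Calls were also lost on leaving out 1 library, for Oas1a homozygous KO replicate 2, for Gbp7 homozygous KO replicate 1 or 3 or wild type replicate 1 or 3, for Parp14 wild type replicate 1 or 4, for Ifi27 homozygous KO replicate 1 or 2, heterozygous KO replicate 3 or any wild type, and for Parp9 any library other than wild type replicate 4. Against heterozygous KO the number lay between 22 and 32 over 17 alternatives, against 27, with 21 calls kept in all. Over all genes these calls lay between 2153 and 4238, against 3342. Oas1a, Herc6, Irgm1, Parp14, Sp110 and Ifi27 lost their calls in 1 to 8 alternatives, each without at least 1 heterozygous KO library. Their adjusted p was up to 0.135 over all alternatives. Parp14 also lost its call with the replicate block, and Herc6, Parp14 and Sp110 with sex as a term. Heterozygous KO against wild type gave 0 members in every alternative. Among the other pathway genes of that comparison, DESeq2 called 1, Ifngr1 (0.43, adjusted p 0.0311), and leaving out 1 library gave 0 to 1, again Ifngr1 without wild type replicate 1 (0.54, adjusted p 0.0302). Usp7 between the knock-outs was -0.41 with sex as a term (adjusted p 0.0547) and -0.50 to -0.28 with 1 library left out, losing its call without heterozygous KO replicate 2 (-0.39, adjusted p 0.0765) or 3 (-0.39, adjusted p 0.0915). The sign changed for Stat2 (0.00 with the animal set as a term, -0.13 to 0.03 with 1 library left out) and Irf1 (-0.16, and -0.06 to 0.64), in both without homozygous KO replicate 2, and neither was called. The cause was not tested. Blocking on replicate number gave 25, 0 and 26 called members in the 3 comparisons, and 4934, 5 and 3293 called genes in all. Since same-numbered libraries correlated between -0.091 and 0.200, the replicate numbers were not taken as pairs. Groups of 3 and 4 animals limit every call, and the 2 shallowest wild types limit members under about 1 CPM.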
